A study of Mus musculus with 6 samples.

Results

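The genes described here encode 10 transcription factors known from Purkinje cells: *Lhx1*, *Lhx5*, *Skor2*, *Rora*, *Foxp1*, *Foxp2*, *Foxp4*, *En1*, *En2* and *Ebf1*. They were chosen by symbol and make up 10 of the 53746 genes in the table of counts. All 10 passed the filter on low counts, which left 16961 genes to test. RNA came from the whole cerebella of 6 mice at 2 months of age. In 3 N153SLSL/LSLPcp2-cre mice, called Pcp2-cre mice here, *Pcp2-cre* drove Cre in Purkinje cells, where it removes the LoxP-Stop-LoxP cassette that holds back the STING-N153S knockin. The other 3 mice were N153SLSL/LSL controls, which carry the same floxed knockin on both alleles but no Cre. In each genotype mice 1 and 2 are labelled male and mouse 3 female. The comparison asks how a constitutively active STING in Purkinje cells goes with the levels of the factors that set the identity of these neurons.

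Purkinje cells are the output neurons of the cerebellar cortex, and a small set of DNA-binding proteins directs their birth, maturation and upkeep. LHX1 and LHX5 are LIM homeodomain proteins that work with the cofactor LDB1, and SKOR2 is a corepressor of the SKI family that is largely restricted to Purkinje cells in the cerebellum. RORA is an orphan nuclear receptor whose loss causes the *staggerer* ataxia. FOXP1, FOXP2 and FOXP4 are forkhead repressors that bind DNA as dimers, EN1 and EN2 are the engrailed homeodomain proteins that pattern the midbrain and hindbrain, and EBF1 is a helix-loop-helix factor of the EBF family. Several of these genes are also used outside Purkinje cells. *Rora* is expressed in molecular layer interneurons, *En2* in granule cells, and *Ebf1* in mural cells of vessels and in B lymphocytes.

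Total counts lay between 6733178 and 10178218 per mouse, and 3 counts, used as the limit of detection, came to between 0.297 and 0.447 CPM, the count scaled to the size of the library. This floor covers counting error only. *Sting1*, the engineered gene, lay between 23.2 and 27.3 CPM in control and between 34.2 and 44.4 CPM in Pcp2-cre mice, with no overlap. Public single-cell data shown in the paper place *Sting1* RNA in microglia, with little or none in neurons. The paper holds its own immunostaining to be more reliable, and this found STING protein in Purkinje cells of the cerebellum. In younger Pcp2-cre mice the stained protein was higher in Purkinje cells and not in microglia. Summed microglia markers here were 60.9 to 65.9 CPM in control and 145 to 159 CPM in Pcp2-cre mice. Which cells the added *Sting1* RNA came from was not tested. The presence of Purkinje cell RNA in the tissue was clear from all 10 effector markers listed for this cell type, whose summed level was 7786 to 8509 CPM in control mice. Genotypes were compared by quasi-likelihood in edgeR, and p-values were adjusted by the Benjamini-Hochberg method over all tested genes. A gene is said to have risen or fallen at an adjusted p of at most 0.05, and is called differentially expressed when its log2 fold change is also at least 0.5 in size, the thresholds used in the study.

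Of the 10 transcription factor genes, 7 fell in Pcp2-cre cerebella, none rose and 3 did not pass the test. *Lhx1*, *Lhx5*, *Skor2*, *Rora*, *Foxp2*, *Foxp4* and *Ebf1* fell, while *Foxp1*, *En1* and *En2* did not pass. Among all tested genes 4.75% fell and 2.99% rose at the same adjusted p. With the fold-change threshold, 4 of the 10 were called lower (*Lhx1*, *Lhx5*, *Skor2* and *Foxp2*), against 1.79% of all tested genes, and none was called higher, against 1.37%. For 7 of the 10 genes all Pcp2-cre values in CPM were lower than any control value, a pattern that 11.4% of all tested genes showed. The median log2 fold change of the 10 genes was -0.42, beside 0.00 over all tested genes. In a bulk sample a smaller number of Purkinje cells and less RNA per Purkinje cell cannot be told apart.

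**Figure D1:**
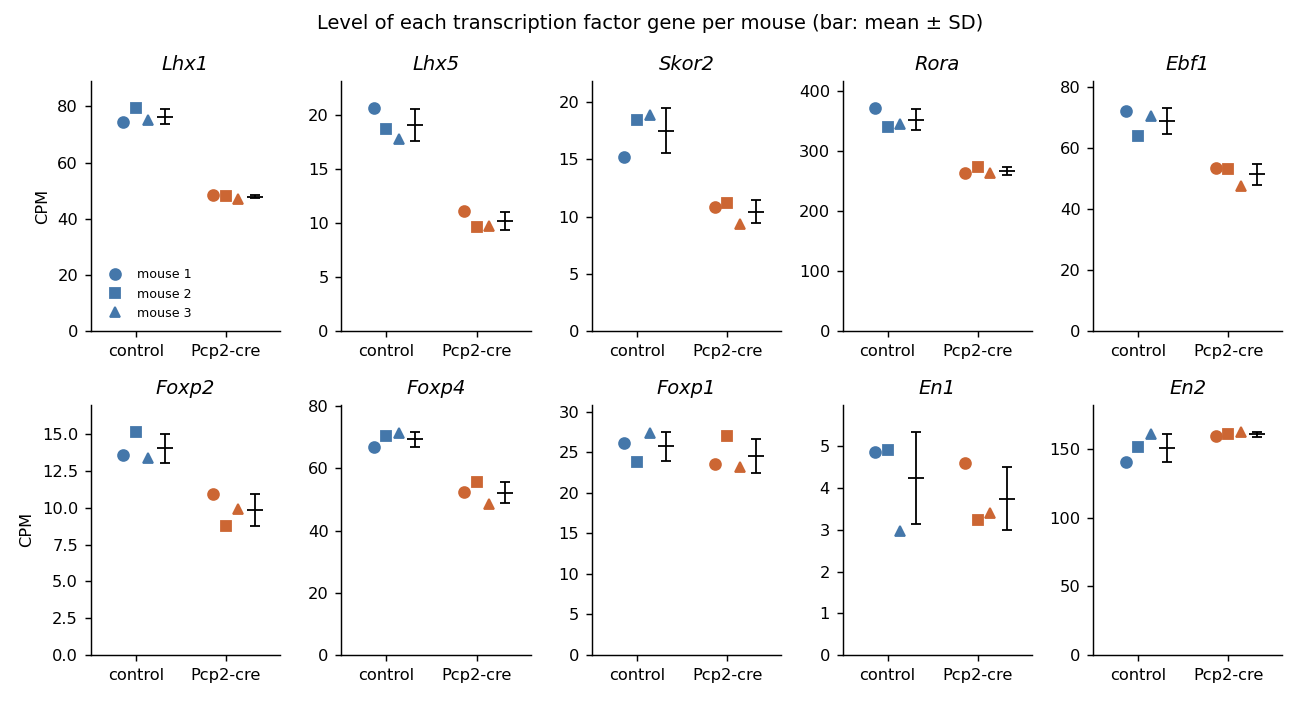
Level of each of the 10 transcription factor genes in CPM (vertical axes from 0) in 3 control (blue) and 3 Pcp2-cre (orange) mice. Each point is a mouse, with a circle, square or triangle for mouse 1, 2 or 3, and black bars give mean ± SD. The groups are apart in the first 7 panels, such as *Lhx1* with 76.4 against 47.9 CPM, and overlap in those of *Foxp1*, *En1* and *En2*.

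The LIM homeodomain genes and *Skor2* showed the larger falls. *Lhx1* (ENSMUSG00000018698, chromosome 11 of GRCm39, 84408803 to 84416368, reverse strand) had 74.6, 79.5 and 75.1 CPM in control mice 1, 2 and 3 and 48.5, 48.0 and 47.2 CPM in Pcp2-cre mice 1, 2 and 3. The spread within each genotype was a few CPM and the gap between the genotypes was much wider. Its mean went from 76.4 ± 2.70 to 47.9 ± 0.645 CPM (SD, n = 3 mice each), which is 62.7% of the control level. The log2 fold change was -0.67 (standard error 0.0560, edgeR adjusted p = 2.68e-08).

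*Lhx5* (ENSMUSG00000029595, chromosome 5, 120569764 to 120579292, forward strand) is the close relative of *Lhx1*. It had 20.7, 18.8 and 17.8 CPM in control and 11.2, 9.70 and 9.77 CPM in Pcp2-cre mice. All 3 Pcp2-cre mice sat well below the lowest control. The mean fell to 53.5% of control, from 19.1 ± 1.47 to 10.22 ± 0.846 CPM (SD, n = 3 mice each). On the log2 scale the change was -0.90 (standard error 0.114, edgeR adjusted p = 1.05e-05). The log2 ratio of *Lhx5* to *Lhx1* was -1.84, -2.07 and -2.06 in control and -2.09, -2.28 and -2.24 in Pcp2-cre mice. The 2 sets did not overlap, but the highest Pcp2-cre value lay only just under the lowest control.

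*Skor2* (ENSMUSG00000091519, chromosome 18, 76944100 to 76988037, forward strand) had 15.2, 18.5 and 18.8 CPM in control and 10.8, 11.2 and 9.32 CPM in Pcp2-cre mice. Control mouse 1 was the lowest control and still lay above all Pcp2-cre mice. The mean went from 17.5 ± 1.99 to 10.4 ± 0.989 CPM (SD, n = 3 mice each), 59.6% of control. Its log2 fold change was -0.74 (standard error 0.121, edgeR adjusted p = 2.56e-04). *Skor1*, the other gene of this pair, had a log2 fold change of -0.05 (edgeR adjusted p = 0.887).

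*Rora* (ENSMUSG00000032238, chromosome 9, 68561068 to 69295528, forward strand) was the most abundant of the 10 in CPM and fell by less. It had 372.0, 341 and 345 CPM in control and 264, 274 and 263 CPM in Pcp2-cre mice. The 3 Pcp2-cre mice were close to each other and all below the controls. Its mean was 353 ± 17.04 and 267 ± 6.36 CPM (SD, n = 3 mice each), 75.7% of control, and its log2 fold change of -0.40 (standard error 0.0431, edgeR adjusted p = 1.10e-06) was under the fold-change threshold. Its relative *Rorb* had a log2 fold change of 0.33 and did not pass the test (edgeR adjusted p = 0.234).

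*Ebf1* (ENSMUSG00000057098, chromosome 11, 44508138 to 44898918, forward strand) had 72.1, 64.0 and 70.4 CPM in control and 53.5, 53.1 and 47.5 CPM in Pcp2-cre mice. The genotypes did not overlap. The mean went from 68.9 ± 4.27 to 51.4 ± 3.35 CPM (SD, n = 3 mice each). On the log2 scale this was -0.42 (standard error 0.0638, edgeR adjusted p = 9.55e-05). *Ebf2*, which marks the zebrin-negative subset of Purkinje cells, is outside the 10 genes and fell further. It went from 15.2 ± 1.38 to 7.12 ± 0.514 CPM. On the log2 scale this was -1.08 (standard error 0.132, edgeR adjusted p = 6.04e-06). *Ebf3* also fell, with a log2 fold change of -0.50 (edgeR adjusted p = 0.0250), and *Ebf4* did not pass (0.30, edgeR adjusted p = 0.249). These are all 4 genes of the family, so the EBF genes did not move as one.

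Of the 3 *Foxp* genes *Foxp4* and *Foxp2* fell and *Foxp1* did not pass. *Foxp4* (ENSMUSG00000023991, chromosome 17, 48178058 to 48235699, reverse strand) had 66.7, 70.3 and 71.3 CPM in control and 52.4, 55.5 and 48.7 CPM in Pcp2-cre mice. All 3 Pcp2-cre mice were under the controls, and the log2 fold change was -0.41 (standard error 0.0607, edgeR adjusted p = 8.14e-05). With the deposited FPKM values in place of counts its adjusted p was 0.110 (limma on log2(FPKM + 1)), and the groups still did not overlap.

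*Foxp2* (ENSMUSG00000029563, chromosome 6, 14901287 to 15441976, forward strand), the gene whose human counterpart is tied to speech, had 13.6, 15.2 and 13.4 CPM in control and 10.9, 8.77 and 9.91 CPM in Pcp2-cre mice. The genotypes did not overlap in CPM. The log2 fold change was -0.51 (standard error 0.126, edgeR adjusted p = 0.0122), just past the fold-change threshold. This fall was the least firm of the 7. It was lost without control mouse 2 (-0.46, edgeR adjusted p = 0.0538), without Pcp2-cre mouse 2 (-0.42, edgeR adjusted p = 0.106), with DESeq2 (adjusted p = 0.156) and with FPKM values, on which the genotypes overlapped.

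*Foxp1* (ENSMUSG00000030067, chromosome 6, 98902299 to 99499685, reverse strand) had 26.2, 23.8 and 27.4 CPM in control and 23.6, 27.0 and 23.2 CPM in Pcp2-cre mice, so the genotypes were mixed. Its log2 fold change was -0.07 (95% interval -0.26 to 0.12, edgeR adjusted p = 0.764). The log2 ratio of *Foxp4* to *Foxp1* was 1.34, 1.55 and 1.38 in control and 1.14, 1.03 and 1.06 in Pcp2-cre mice. The log2 ratio of *Foxp2* to *Foxp1* went from -0.86 ± 0.198 to -1.30 ± 0.264 (SD, n = 3 mice each). Neither ratio overlapped between the genotypes, both being lower in Pcp2-cre mice, while that of *Foxp4* to *Foxp2* did overlap. For *Foxp2* to *Foxp1* the gap was narrow, from -1.02 in control mouse 3 to -1.09 in Pcp2-cre mouse 1. The share of gene pairs whose ratios do not overlap was not computed.

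Neither engrailed gene passed the test. *En2* (ENSMUSG00000039095, chromosome 5, 28370689 to 28377195, forward strand) had 140.5, 151 and 161 CPM in control and 159, 161 and 163 CPM in Pcp2-cre mice. The Pcp2-cre values sat near the top of the control range, with 1 mouse above it. Its log2 fold change was 0.09 (95% interval -0.01 to 0.19, edgeR adjusted p = 0.335).

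*En1* (ENSMUSG00000058665, chromosome 1, 120530108 to 120535721, forward strand) was the least abundant of the 10. It had 39, 33 and 30 counts in control and 35, 28 and 23 counts in Pcp2-cre mice, or 4.25 ± 1.11 and 3.75 ± 0.751 CPM (SD, n = 3 mice each). At this depth its log2 fold change of -0.15 had a 95% interval from -0.65 to 0.35 (edgeR adjusted p = 0.821), so a fall of the size seen for *Foxp2* would lie inside it. On FPKM values the sign of this difference turned.

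**Figure D2:**
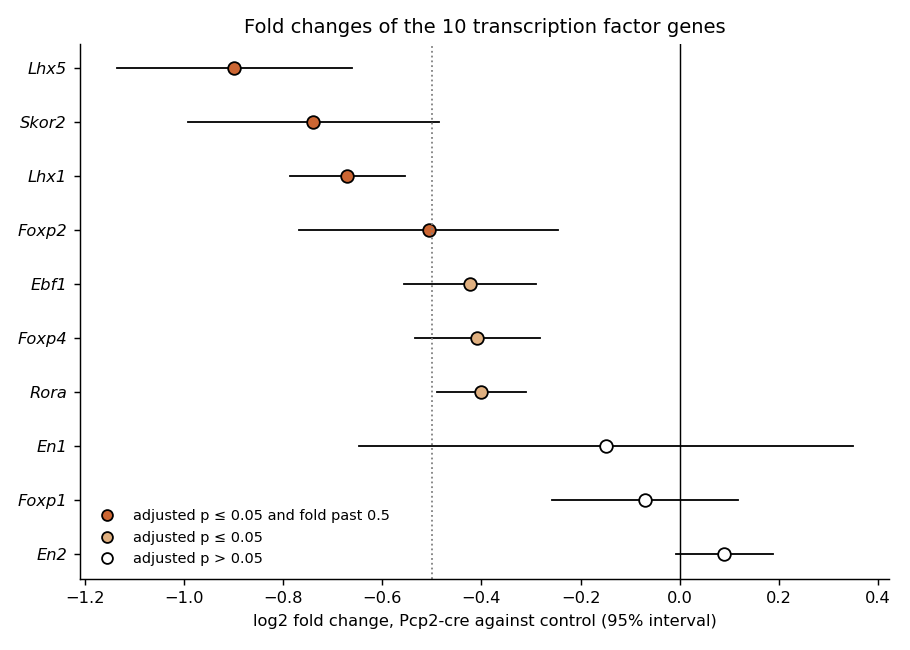
Log2 fold change of each transcription factor gene between Pcp2-cre and control mice (horizontal axis), with 95% intervals from edgeR's quasi-likelihood fit over 3 mice per genotype. Filled points passed an adjusted p of 0.05, darker ones also the fold-change threshold of 0.5 (dotted line). *Lhx5* lies lowest at -0.90 and *En2* highest at 0.09, and the intervals of *Foxp1*, *En1* and *En2* cross 0.

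Exons of 6 of the 10 genes overlap those of another annotated gene, and it is not stated whether the counting used strand. *Lhx1* shares 1661 bp of exon with the opposite-strand lncRNA *Lhx1os*, which had 163 to 335 counts per mouse and fell as well (log2 fold change -0.40, edgeR adjusted p = 0.00175). *Rora* shares 156 bp with the opposite-strand lncRNA *Gm15511* (log2 fold change -0.67, edgeR adjusted p = 0.0293), which had 25 to 68 counts per mouse against 1776 or more for *Rora*. *Lhx5* shares 102 bp with *Lhx5as1*, which had 7 to 22 counts per mouse. Without strand, reads of such pairs cannot be told apart. *Foxp2*, *En1*, *En2* and *Ebf1* overlap no other exon.

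The promoters of *Lhx1* and *Rora* are shown because both genes fell and because each has 1 start in the RefSeq table whose upstream window matched GRCm39 exactly and did not run far into the gene's own first exon. Each line gives the 250 bases before the start, with CpG dinucleotides in capitals. That of *Lhx1* is chr11:84416361-84416610 on the reverse strand and that of *Rora* chr9:68560818-68561067 on the forward strand.
Lhx1: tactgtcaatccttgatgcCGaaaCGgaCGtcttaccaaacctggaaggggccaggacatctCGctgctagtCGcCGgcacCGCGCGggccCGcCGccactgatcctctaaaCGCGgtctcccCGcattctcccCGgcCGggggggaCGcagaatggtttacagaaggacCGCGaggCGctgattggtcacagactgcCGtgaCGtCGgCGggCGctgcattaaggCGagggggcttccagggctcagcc
Rora: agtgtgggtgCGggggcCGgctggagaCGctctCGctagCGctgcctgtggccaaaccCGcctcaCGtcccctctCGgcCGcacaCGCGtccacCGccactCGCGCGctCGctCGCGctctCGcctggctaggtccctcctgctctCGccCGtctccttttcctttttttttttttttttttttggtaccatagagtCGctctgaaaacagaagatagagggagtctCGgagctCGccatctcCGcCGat

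Both windows hold 26 CpG dinucleotides, where the median over all 32851 promoters of the table was 6 and 9.59% had at least as many. The window of *Foxp4* held 27. Of the 3 genes that did not pass the test, *En1* had 19, the 3 windows of *Foxp1* had 34, 11 and 3, and *En2* had no entry, as was the case for *Lhx5*, *Foxp2* and *Skor2*. The 2 windows of *Ebf1*, which fell, had 9 and 14, so CpG density did not separate the genes that fell from the others. The core of the ROR element TAGGTCA, the forkhead core TGTTTAC and the EBF palindrome were searched on both strands and were in none of the 9 windows, while 2.23%, 3.17% and 0.779% of all promoters held them. The homeodomain core TAATTA was in 1 window, of *Foxp1*, and in 4.84% of all promoters. No match says only that these letters are not in these windows.

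Levels between genes were compared in FPKM, which scales to exon length. In control mice the order was *En2* with 36.7 ± 1.19 FPKM, *Rora* with 29.3 ± 1.64, *Foxp4* with 16.7 ± 0.790, *Lhx1* with 16.0 ± 0.229, *Ebf1* with 9.85 ± 0.429, *Lhx5* with 5.71 ± 0.115, *Foxp1* with 4.14 ± 0.317, *Skor2* with 4.02 ± 0.264, *Foxp2* with 1.59 ± 0.166 and *En1* with 1.17 ± 0.442 FPKM (SD, n = 3 mice each). Neighbours in this order whose mice overlapped were *Foxp4* with *Lhx1*, *Foxp1* with *Skor2*, and *Foxp2* with *En1*. The factors most closely tied to Purkinje cells were thus not the highest in the whole tissue. In Pcp2-cre mice the order was the same apart from *Lhx5*, which at 3.26 ± 0.139 FPKM lay under *Foxp1* at 4.03 ± 0.5001 FPKM.

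**Figure D3:**
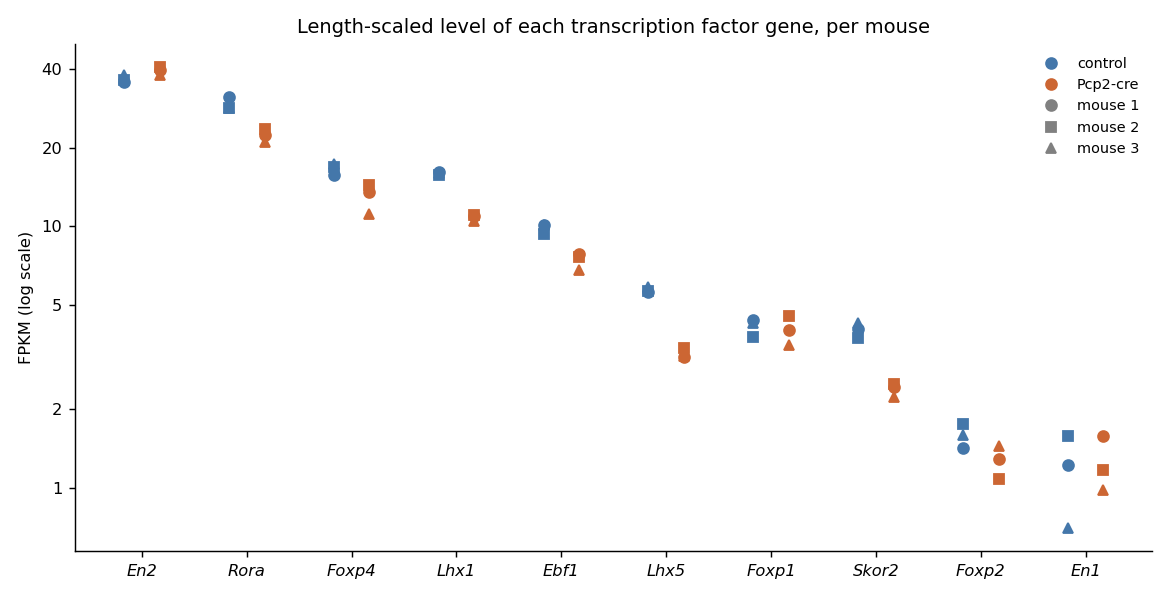
FPKM of each transcription factor gene (log scale) in each of 3 control (blue) and 3 Pcp2-cre (orange) mice, with a circle, square or triangle for mouse 1, 2 or 3, ordered by the control mean from *En2* (36.7 FPKM) to *En1* (1.17 FPKM). The genotypes are apart for 6 genes, and overlap for *En2*, *Foxp1*, *Foxp2* and *En1*.

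In FPKM the Pcp2-cre values were all under the control values for *Lhx1*, *Lhx5*, *Skor2*, *Rora*, *Foxp4* and *Ebf1*. In CPM 11.4% of all tested genes showed this pattern, and the share in FPKM was not computed. *Lhx1* went from 16.2, 15.7 and 16.0 FPKM in control to 10.99, 11.03 and 10.5 FPKM in Pcp2-cre mice, 67.9% of control. For these 6 genes the two-sided exact permutation p was 0.10, the smallest that 3 mice against 3 allow. *Foxp2* had 1.42, 1.75 and 1.59 FPKM in control and 1.29, 1.08 and 1.45 FPKM in Pcp2-cre mice (exact permutation p = 0.20), so that Pcp2-cre mouse 3 lay above control mouse 1.

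The transcription factors were set beside 10 effector markers of Purkinje cells, *Calb1*, *Pcp2*, *Pcp4*, *Car8* and *Itpr1* among them, genes for the calcium handling, signaling and transport of the mature cell. All 10 markers fell, 8 were called, and their median log2 fold change was -0.77, with a range from -0.98 to -0.40. In Pcp2-cre mice 1, 2 and 3 their mean log2 CPM relative to the control mean was -0.62, -0.81 and -0.76. For each transcription factor gene the log2 CPM minus this marker mean was then taken in each mouse, and a two-sided exact permutation test, whose smallest p is 0.10, was applied to the genotypes.

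On the CPM scale *Lhx1*, *Lhx5* and *Skor2* had the smallest differences from the effector markers. The difference of this ratio between Pcp2-cre and control mice was 0.06 for *Lhx1* (exact permutation p = 0.30) and 0.00 for *Skor2* (exact permutation p = 1.0), with overlap between the genotypes. On log2(FPKM + 1) these differences were larger, at 0.26 for *Lhx1* and 0.20 for *Skor2*. For *Lhx5* it was -0.15, from -4.32, -4.50 and -4.49 in control to -4.57, -4.58 and -4.63 in Pcp2-cre mice. *Lhx5* was the 1 gene of the 10 whose ratio lay under the controls in all 3 Pcp2-cre mice (exact permutation p = 0.10), and this difference was 0.12 on log2(FPKM + 1) and -0.0083 on log2(FPKM + 0.1), so its sign depended on the scale.

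In 7 genes the ratio to the effector markers was higher in all 3 Pcp2-cre mice than in any control (exact permutation p = 0.10 each, 0.125 after Benjamini-Hochberg adjustment over the 10 genes). Among them were 4 of the genes that fell, whose log2 fold changes of -0.51 to -0.40 lay within the range of the single markers but above their median. The ratio of *Rora* was -0.17, -0.33 and -0.24 in control and -0.04, 0.21 and 0.09 in Pcp2-cre mice, a difference of 0.33. For *Foxp4*, *Ebf1* and *Foxp2* the differences were 0.32, 0.31 and 0.23. The other 3 were *En2* (0.83), *Foxp1* (0.66) and *En1* (0.58), which had not passed the test between genotypes. All 10 markers fell, so a gene whose own level does not change also rises in this ratio. The median log2 fold change over all tested genes was 0.00. The share of all tested genes with a ratio above every control was not computed, so the 7 genes have no background to be read against. The p-values of this comparison cannot pass 0.05 with 3 mice against 3.

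**Figure D4:**
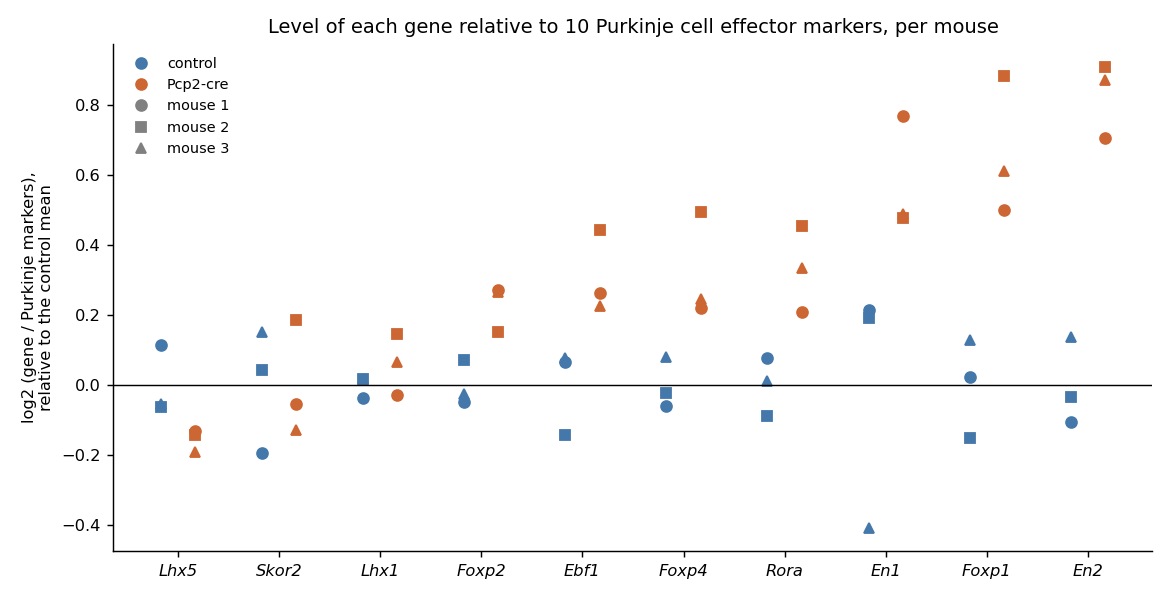
Log2 ratio in CPM of each transcription factor gene to the mean of 10 Purkinje cell effector markers in each mouse, shown relative to the control mean of the gene (vertical axis), for 3 control (blue) and 3 Pcp2-cre (orange) mice, with a circle, square or triangle for mouse 1, 2 or 3. *Lhx5*, *Skor2* and *Lhx1* lie nearest to 0 on this scale (differences of -0.15, 0.00 and 0.06), and the other 7 genes lie above the controls, up to 0.83 for *En2*.

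Transcription factors of other cerebellar cell types were examined for contrast. Of 12 granule cell factors, all tested, 1 rose (*Neurod1*, log2 fold change 0.17, edgeR adjusted p = 0.0282), none fell, and the median log2 fold change was 0.02. Of 10 factors of interneurons and nuclear neurons, 7 were tested and none passed, with a median of 0.01. Of 9 glial factors 2 rose (*Sox10* and *Myrf*, with 0.34 and 0.21) and 1 fell (*Nkx6-2*, -0.35), with a median of 0.21. In FPKM the mean of *Nkx6-2* was 2.86 in control and 3.14 in Pcp2-cre mice, so its direction depended on the scale. All 6 tested myeloid factors of 7 rose and were called, with a median of 1.40, *Irf8* among them with 2.00. None of the granule cell, interneuron and nuclear neuron factors fell, while 7 of the 10 Purkinje cell factors did, and the difference between the lists was not tested.

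**Figure D5:**
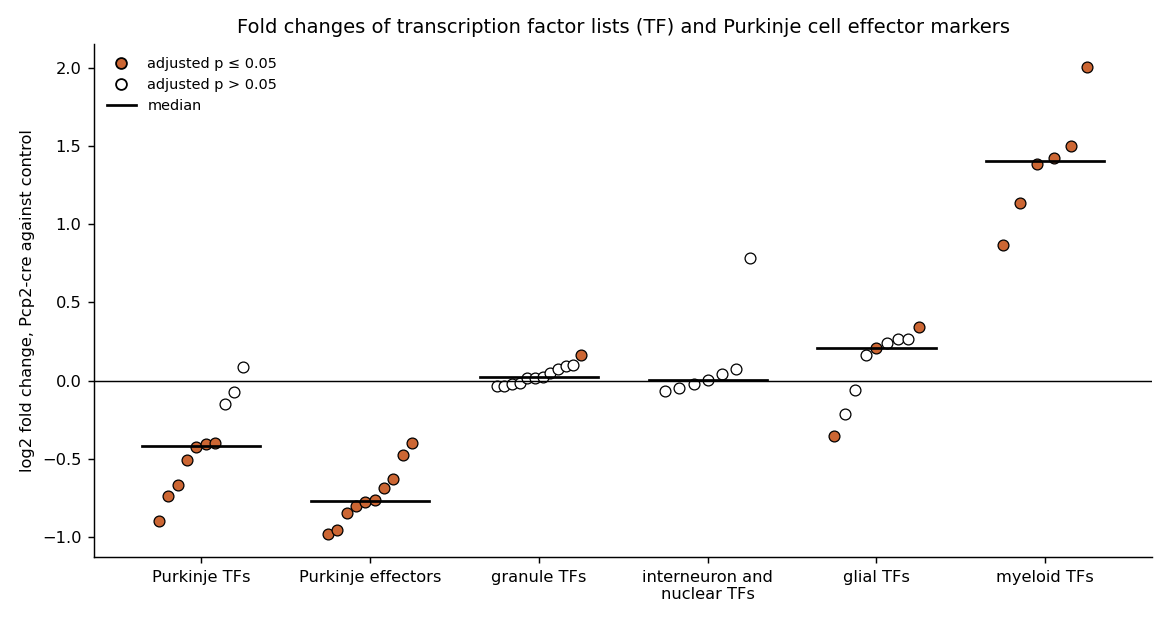
Log2 fold changes between Pcp2-cre and control mice (vertical axis) of the genes in 6 lists, one point per tested gene, filled where the adjusted p was at most 0.05, with the median as a black bar (3 mice per genotype). The Purkinje cell factors (median -0.42) and effector markers (-0.77) lie below 0, granule cell factors around 0 (0.02) and myeloid factors above it (1.40).

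Relatives, cofactors and known targets of the 10 factors were followed next. Of 17 family relatives 8 were tested and 2 fell, *Ebf2* and *Ebf3*, with a median log2 fold change of -0.11. *Lhx2*, *Lhx4*, *Lhx8*, *Isl1* and *Isl2* were at or under 3 counts in every mouse. Of 28 cofactors, all tested, 5 fell and none rose. Among them were *Ncoa1* (-0.23) and *Ncoa2* (-0.21), coactivators of nuclear receptors, and *Smad3* (-0.25) and *Smad2* (-0.23), which act in TGF-beta signaling with SKI family proteins. None of the 5 reached the fold-change threshold. *Ldb1*, the LIM cofactor, had a log2 fold change of 0.06 (edgeR adjusted p = 0.537), and the median of the list was -0.03.

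Of 6 genes known as RORA targets in Purkinje cells, 4 fell, *Itpr1* (-0.98), *Pcp4* (-0.80), *Slc1a6* (-0.47) and *Pcp2* (-0.40), which are also among the effector markers above. The median of the 6 was -0.44. *Shh*, the mitogen that Purkinje cells send to granule cell precursors, had 57, 40 and 61 counts in control and 33, 50 and 33 counts in Pcp2-cre mice. Its log2 fold change of -0.34 did not pass (edgeR adjusted p = 0.348). *Calm2* had a log2 fold change of -0.11 and did not pass either. ROR elements also serve the circadian clock. Of 9 clock genes 2 fell, *Dbp* (-0.39, edgeR adjusted p = 0.00745) and *Nr1d1* (-0.16, edgeR adjusted p = 0.0471), the median was -0.08, and *Bmal1* had a log2 fold change of -0.11 (edgeR adjusted p = 0.358). Of 4 genes known as FOXP2 targets 3 were tested and 1 fell, *Mef2c* (-0.29, edgeR adjusted p = 0.00869), while *Cntnap2* (-0.13) and *Vldlr* (-0.14) did not pass. The median of these 3 was -0.14.

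Cell types that share some of these factors were followed through their own markers. Of 8 molecular layer interneuron markers 2 fell (*Pvalb*, -0.22, also a Purkinje cell gene, and *Cdh22*, -0.22), the median was -0.05, and their sum was 796 to 834 CPM in control and 741 to 756 CPM in Pcp2-cre mice. None of 8 granule cell markers passed, with a median of 0.05. Of 8 endothelial and mural markers 1 rose (*Vtn*, 0.21), with a median of 0.12 and a sum of 327 to 341 CPM in control and 347 to 360 CPM in Pcp2-cre mice. No lymphocyte marker of 7 passed the filter, and their sum was at most 1.48 CPM in a mouse. *Ebf1* had 47.5 CPM or more in each mouse, and the cell types its RNA came from were not tested.

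Other cell types changed with genotype in the same libraries. Of 6 microglia markers 4 rose, from a sum of 60.9 to 65.9 CPM in control to 145 to 159 CPM in Pcp2-cre mice. Of 8 astrocyte and Bergmann glia markers 4 rose and 2 fell, with sums of 2983 to 3023 and 3379 to 3464 CPM. Of 6 oligodendrocyte markers 4 rose, with sums of 3548 to 3763 and 4154 to 4366 CPM. Of 8 choroid plexus markers 5 were tested and 4 fell. Their sum ranged from 32.5 to 1246 CPM in control and from 24.2 to 86.6 CPM in Pcp2-cre mice, so it varied most among controls. The part of these lists in the values of the 10 transcription factor genes was not tested.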

How the data were processed

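Cerebella of 6 mice at 2 months of age were sequenced, 3 per genotype. Groups and mouse numbers came from the sample titles. The authors enriched poly A RNA, trimmed the paired reads, used STAR for alignment to GRCm39, and counted Gencode genes with featureCounts and StringTie. They deposited raw counts for 53746 genes, and in a second table FPKM values for 55005 genes that the authors computed. Tool versions, the Gencode release and the use of strand are not given in the sources used here.

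The main test was the quasi-likelihood test of edgeR 4.0.16 in R 4.3.3, after filterByExpr and TMM scaling, with genotype as the only term. Total counts of 6733178 to 10178218 limit the precision of genes of low level. Standard errors were taken from the fold change and its F statistic. CPM uses the TMM-scaled library sizes, and log2 CPM a prior count of 2. Permutation tests used scipy 1.17.1. The alternatives were DESeq2 1.42.0, its size factors in edgeR, a minimum of 10 counts in every mouse or no filter in place of filterByExpr, sex as a covariate, a replicate block, leaving out each mouse, and limma 3.58.1 on log2(FPKM + 1) or log2(FPKM + 0.1), for genes with a mean FPKM of at least 0.1 or with no filter. The scripts were tested on simulated counts.

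The 10 genes and all lists were chosen with earlier results of these data known. The lists hold family relatives, cofactors, early lineage factors, targets of RORA and FOXP2, clock genes, transcription factors of other cerebellar cells, and markers of Purkinje, granule, interneuron, glial, microglial, vascular, lymphoid, choroid plexus and brainstem cells. All 10 members are named, *Sting1* as the engineered gene, up to 4 genes per list with the smallest p, any gene of a list of at most 6, and genes with overlapping exons. A few further list members are named after their values were seen (*Skor1*, *Ebf4*, *Ldb1*, *Smad2*, *Bmal1*, *Slc6a3*, and those at the floor). *Bmal1* was matched by its identifier. Some list members are not reported here by name. Positions came from Gencode M39 on GRCm39, and promoters from RefSeq, for 6 of the 10 genes, placed by exact match on GRCm39. Nothing says that the mice came from separate litters, so p-values measure the spread between these 6 mice.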

Additional observations from a re-analysis of the deposited data

How the results depend on the processing

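The falls of *Lhx1*, *Lhx5* and *Skor2* passed an adjusted p of 0.05 in all 15 alternative fits, and *Foxp1*, *En1* and *En2* in none. *Rora* and *Ebf1* passed in 14 of 15, and missed it with limma on log2(FPKM + 1) with no filter, at log2 fold changes of -0.38 (adjusted p = 0.0621) and -0.37 (adjusted p = 0.0879). *Foxp4* passed in 12 and missed it in the 3 FPKM fits, at -0.34, -0.36 with a pseudocount of 0.1, and -0.34 with no filter. *Foxp2* passed in 9. It missed it with DESeq2 (-0.51) and in the 3 FPKM fits (-0.19, -0.30 with a pseudocount of 0.1, and -0.19 with no filter), and its log2 fold change ranged from -0.59 to -0.42 on leaving out single mice. The log2 fold change of *En1* turned to 0.0618, 0.12 with a pseudocount of 0.1, and 0.0618 with no filter on FPKM values. The cause was not tested in any of these.

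Of the 10 genes 7 were lower at an adjusted p of 0.05 and 4 called. The count of 7 became 3 with limma on log2(FPKM + 1) with no filter, and the count of 4 became 7 without the fold-change threshold. On leaving out single mice they were 6 to 7 and 3 to 4. Over all genes, 304 were called lower and 233 higher. Limma on log2(FPKM + 1) called 185 lower, and with no filter 116 lower and 105 higher, DESeq2 called 146 higher, and without the fold-change threshold 805 were lower and 507 higher. The difference in ratio to the effector markers on log2(FPKM + 1) and log2(FPKM + 0.1) was 0.26 and 0.23 for *Lhx1*, 0.12 and -0.0083 for *Lhx5*, and 0.59 and 0.48 for *Foxp2*, and for *Skor2* 0.20 on the first of these. The second scale was chosen after seeing the data.

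Mouse numbers were not taken to pair the samples, since not every same-numbered pair correlated above 0.1. Deviations of same-numbered mice from their genotype means correlated at 0.04, 0.06 and 0.17, and control mice 2 and 3 correlated best with their own number, while control mouse 1 did so with Pcp2-cre mouse 2. With the replicate block 7 of the 10 genes were lower and 4 called, as without it, and 319 genes were called lower and 229 higher. With sex as a covariate 7 and 4 were found too. Depth limits *En1* most, with 23 to 39 counts per mouse.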

Other observations

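Some of the factors that act early in the Purkinje lineage were at or near the limit of detection in these adult cerebella. Of 8 such genes 3 were tested and none passed, *Olig2* and *Pax2* among them with log2 fold changes of 0.16 and 0.15. *Ptf1a*, *Neurog1*, *Gsx1* and *Gbx2* had at most 3 counts in every mouse.

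Among 9 markers of midbrain and brainstem neurons only *Th*, the tyrosine hydroxylase gene, passed the filter on low counts, and it rose. Its mean went from 9.27 ± 2.42 to 22.4 ± 4.63 CPM (SD, n = 3 mice each), and the genotypes did not overlap. On the log2 scale this was 1.27 (standard error 0.162, edgeR adjusted p = 1.16e-05). *Slc6a3*, the dopamine transporter gene that goes with *Th* in midbrain dopamine neurons, had at most 2 counts in every mouse. The cell type that the *Th* RNA came from, within the cerebellum or outside it, was not tested.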
